A study of Danio rerio with 11 samples.

Results

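The solute carriers that move sugars, amino acids and small peptides across cell membranes were followed in whole zebrafish larvae whose parents had been exposed to phthalates. Members were all genes of the deposited tables whose symbol begins with slc1a, slc2a, slc3a, slc5a, slc6a, slc7a, slc15a, slc36a or slc38a, with case ignored and slc5a5 left out. This gave 113 of 27625 genes. Of these, 111 encode transporters, while slc2a4rg (a transcription regulator) and SLC7A6OS (a gene on the opposite strand of SLC7A6) share only the prefix. Of the 113 members, 98 passed a filter on low values that ignored the groups, and 15 did not. The gene table gives most symbols in human spelling, so paralogues can share a symbol and are told apart here by Ensembl ID.

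Sodium, proton and exchange-driven carriers of these families load nutrients from the gut lumen, recover them from the urinary filtrate, and pass them to the blood on the opposite side of the cell. Others clear glutamate, GABA, glycine, choline and monoamines from the space around nerve endings, or feed muscle with creatine, taurine and glucose. Heavy chains of the slc3a family carry light chains of the slc7a family to the membrane. The roles given here are mostly known from mammals, and the assignment to intestinal, renal, muscle, neuronal, broad or other classes rests on them. It was not read from these whole-larva libraries, in which fewer cells of a type and less RNA per cell cannot be told apart.

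All larvae were wild-type AB fish taken at 120 h after fertilization, and the groups differed by the agent that their parents met for 30 days. Combined larvae (3 libraries) came from parents exposed to DBP and DiBP together, DBP larvae (3 libraries) from exposure to dibutyl phthalate, DiBP larvae (3 libraries) from exposure to diisobutyl phthalate, and control larvae (2 libraries) from parents with no agent. Neither doses nor the number of larvae per library are known from the sources used. Whether replicates came from separate clutches is not known either, so p-values measure only the spread between these libraries, which may be technical. Each library held 13396589 to 15381114 recovered reads.

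The control libraries stood apart from each other. Between control replicates 1 and 2, 16 of the 98 tested members (16.3%) and 12.1% of all tested genes were at least 2-fold apart, against 0 to 7 members in any other replicate pair. Control replicate 1 held 11870 FPKM over 12 skeletal muscle markers, against 36360 to 52760 in the other 10 libraries, and 4967 FPKM over 6 lens markers, against 486.6 to 970.1. Their part in the results was not tested. Changes called against control are therefore given with their value without control replicate 1, or with the range over fits with 1 library left out where that ended the call. Fits without control replicate 1 hold 1 control library. Their p-values therefore include no spread between controls, and a smaller one there is no firmer result. Counts of called markers are given with both controls only. In combined replicate 3, slc1a8b was far below its replicates, and that result is given without it.

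By level per length, 3 members averaged 100 FPKM or more over the 11 libraries, 16 averaged 10 or more, 64 averaged 1 or more and 49 averaged under 1. Among those at the top were SLC1A2 (ENSDARG00000102453), a glutamate carrier of brain, and SLC3A2 (ENSDARG00000037012), the 4F2 heavy chain. The neuronal class summed to 508.5, 527.1 and 428.9 FPKM in combined larvae, 379.7, 367.3 and 376.6 in DBP larvae, 398.8, 423.3 and 394.4 in DiBP larvae and 527.3 and 376.7 in control larvae. DBP libraries were under every combined and DiBP library, but control replicate 2 lay within the DBP range. Control replicate 1 was the highest, just above combined replicate 2. A large part of each sum was SLC1A2 ENSDARG00000102453. The intestinal class summed to 32.1 to 35.4 FPKM in combined larvae, 28.8 to 36.3 in DBP larvae, 30.2 to 31.5 in DiBP larvae and 20.3 to 26.2 in control larvae. Control larvae lay under every exposed library in that sum. In combined larvae most of it came from SLC7A8 and slc7a8b, which are given below. The sum therefore does not stand for each member of the class.

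Each change is the log2 ratio of group levels with 0.1 FPKM added, given ± its standard error from limma, and was called at an adjusted p under 0.05 over all 19465 genes tested. In DBP larvae 15 members rose and 1 fell against control (16.3% of 98), where 13.8% of all genes were called. In DiBP larvae 23 rose and 5 fell (28.6% of 98), and 28.6% of all genes were called. In combined larvae 1 rose (1.02% of 98), against 2.88% of all genes called and 1.49% called higher. Counted in either direction, the members' shares were near the background in DBP and DiBP larvae. By direction, the members leaned upward more than all genes did, which was not tested. In DBP larvae 15 of 98 rose and 1 fell, beside 8.98% of all genes called higher and 4.80% lower. In DiBP larvae 23 rose and 5 fell, beside 15.4% higher and 13.2% lower. These comparisons share their 2 control libraries. The median change over the tested members was 0.16 in DBP, 0.22 in DiBP and 0.23 in combined larvae, beside -0.01, 0.02 and 0.00 for all genes.

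The counts against control moved with the control libraries. Without control replicate 1, 11 members were called in DBP, 9 in DiBP and 0 in combined larvae, while 9.31%, 17.1% and 2.79% of all genes were called. Without control replicate 2 the counts were 37, 41 and 21, while 29.7%, 42.7% and 22.4% of all genes were called. The counts of all genes thus moved the same way. Of the calls made with both controls, 11 of 16 in DBP larvae and 9 of 28 in DiBP larvae remained without control replicate 1.

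Comparisons among exposed groups do not use the controls for their means. Between DBP and DiBP larvae, 7 members were higher and 4 lower in DBP larvae (11.2% of 98, with 11.4% of all genes called, 5.76% higher and 5.65% lower). Combined larvae had 6 members higher and 14 lower than DBP larvae (20.4%, with 19.0% of all genes called, 8.49% higher and 10.5% lower), and 8 higher and 9 lower than DiBP larvae (17.3%, with 23.0% of all genes called, 10.5% higher and 12.5% lower). These directions depend on scaling. On FPKM as deposited the split was 14 higher and 10 lower against DBP, where 17.3% of all genes were called higher and 6.25% lower. Against DiBP it was 13 higher and 6 lower, where 26.6% were called and 9.63% were lower. The median change of all genes was then 0.16 and 0.11, against 0.00 in each with scaling factors. The plot of every tested transporter by class shows these changes.

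**Figure D1:**
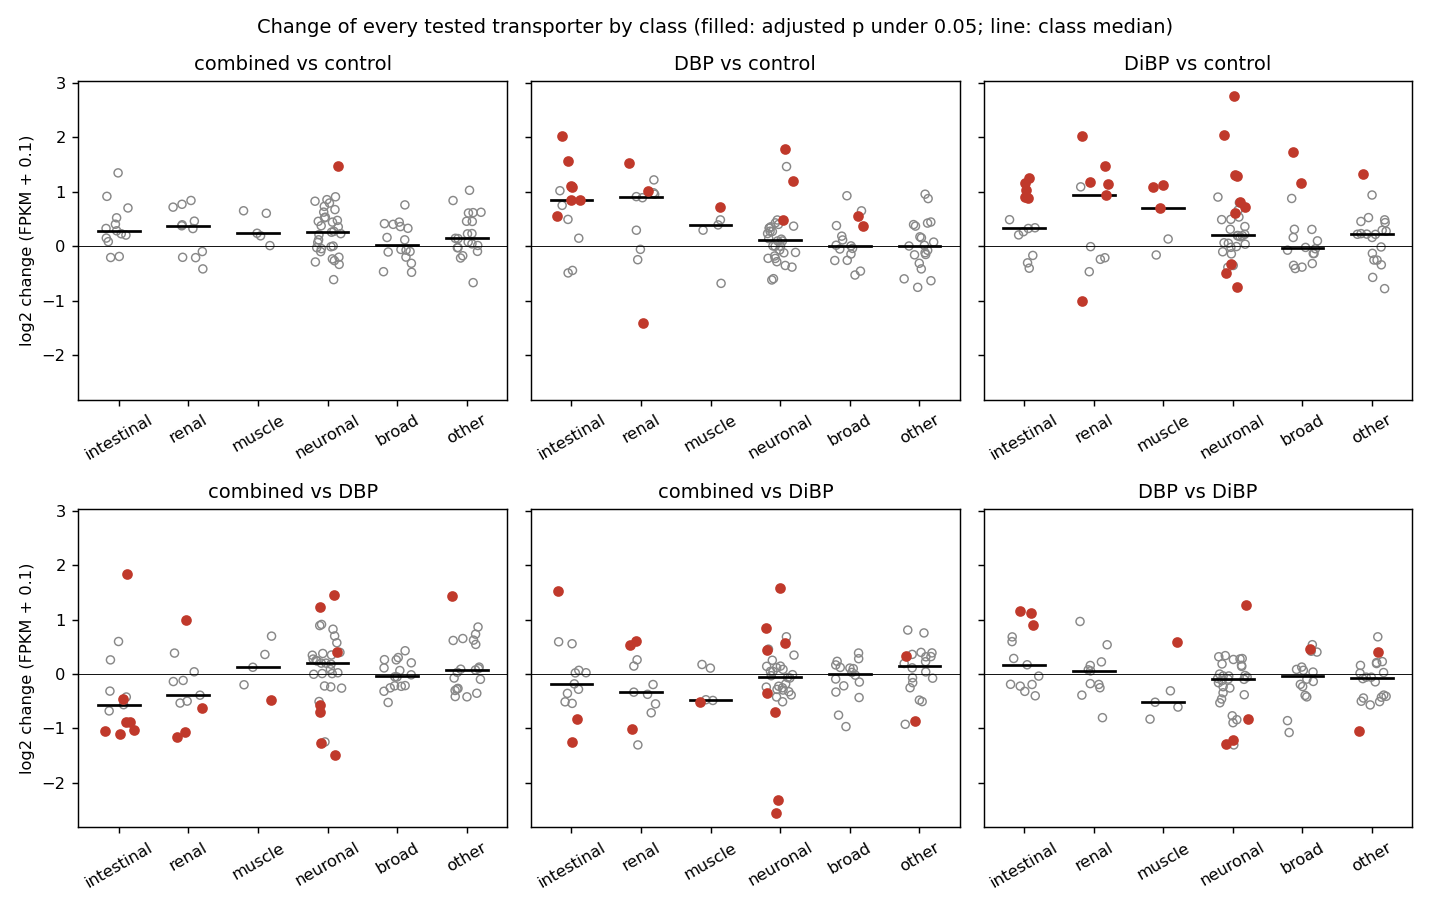
Log2 change of every tested transporter (y axis, log2 of FPKM plus 0.1) by class (x axis) in 6 comparisons; filled points passed an adjusted p of 0.05 and lines mark class medians. Intestinal points lie mostly above 0 in DBP larvae (7 of 13 filled) and mostly under 0 in combined against DBP larvae (6 filled below 0 and 1 above).

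Of 13 intestinal transporters tested, 7 rose in DBP larvae against control with a median change of 0.84, and in DiBP larvae 5 rose with a median of 0.34. Those are 53.8% and 38.5% of the class, beside 13.8% and 28.6% of all genes called. In combined larvae the median was 0.28 and limma called 0 of 13 (3 at an unadjusted p under 0.05 and 1 by voom). Combined larvae had 6 of the 13 lower than DBP larvae and 1 higher (53.8%, beside 19.0% of all genes called). Without control replicate 1, 5 rose in DBP and 3 in DiBP larvae, where 6.03% and 9.65% of all genes were called higher.

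Dietary glucose enters enterocytes through SGLT1, encoded by SLC5A1 (ENSDARG00000013871). Its level was 1.13, 1.71 and 1.03 FPKM in combined larvae, 2.69, 2.14 and 2.53 in DBP larvae, 3.00, 2.98 and 2.74 in DiBP larvae and 1.73 and 1.15 in control larvae. All DBP and DiBP libraries lay above all combined and control libraries, and the combined and control libraries overlapped. SLC5A1 rose in DiBP larvae (1.04 ± 0.22, limma adjusted p = 0.00645; 1.31, adjusted p = 0.00512 without control replicate 1). The rise in DBP larvae (0.84 ± 0.22, limma adjusted p = 0.0293) did not pass without any 1 DBP library or control replicate 2 (0.57 to 1.12 with 1 library left out), and on FPKM as deposited, with the replicate block or with only the groups compared in the fit. Combined larvae were lower than DBP larvae (-1.05 ± 0.20, limma adjusted p = 0.00519) and lower than DiBP larvae (-1.25 ± 0.20, limma adjusted p = 0.00132), and both calls passed in every alternative run.

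Glucose leaves the enterocyte through GLUT2, SLC2A2 (ENSDARG00000056196), which also serves liver and islets. The libraries held 0.765, 1.20 and 0.595 FPKM in combined larvae, 1.28, 1.24 and 1.81 in DBP larvae, 0.923, 1.09 and 0.838 in DiBP larvae and 0.557 and 0.795 in control larvae. The DBP libraries were the highest, with combined replicate 2 and DiBP replicate 2 just under them. SLC2A2 rose in DBP larvae (1.08 ± 0.27, limma adjusted p = 0.0254), a call that did not pass without any 1 DBP library or control replicate 1 (0.86 to 1.30 with 1 library left out), and with only the groups compared in the fit. It was lower in combined than in DBP larvae (-0.88 ± 0.24, limma adjusted p = 0.0297), which did not pass without combined replicates 1 or 3 or any 1 DBP library (-1.10 to -0.70 with 1 library left out), and on FPKM as deposited. The fructose carrier SLC2A5 (ENSDARG00000077875) failed the low-value filter, at 0 to 0.250 FPKM.

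Di- and tripeptides from digested protein are taken up by the proton-driven carrier PEPT1, and 2 genes carry the symbol SLC15A1. SLC15A1 ENSDARG00000100315 had 0.473, 0.653 and 0.682 FPKM in combined larvae, 0.931, 1.29 and 1.40 in DBP larvae, 0.735, 0.725 and 0.741 in DiBP larvae and 0.474 and 0.278 in control larvae. The DBP libraries lay above all others, and DiBP libraries lay above the combined and control ones. It rose in DBP larvae (1.56 ± 0.26, limma adjusted p = 0.00432; 1.86, adjusted p = 0.00479 without control replicate 1) and the call passed in every alternative. In DiBP larvae it rose (0.88 ± 0.26, limma adjusted p = 0.0289), a call that did not pass without any 1 DiBP library or control replicate 2 (0.58 to 1.18 with 1 library left out), and without the low-value filter, with the replicate block or with only the groups compared in the fit. Against DBP larvae the combined larvae were lower (-1.04 ± 0.23, limma adjusted p = 0.0123; adjusted p = 0.0507 without DBP replicate 2).

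The other copy, SLC15A1 ENSDARG00000044528, was read at 1.33, 1.43 and 1.27 FPKM in combined larvae, 1.70, 1.57 and 2.24 in DBP larvae, 0.880, 0.791 and 0.707 in DiBP larvae and 1.32 and 0.807 in control larvae. DBP libraries were again the highest, control replicate 1 lay within the combined range and control replicate 2 within the DiBP range. DBP larvae were higher than DiBP larvae (1.16 ± 0.20, limma adjusted p = 0.00619), a call that passed in every alternative. The rise against control in DBP larvae (0.85 ± 0.23, limma adjusted p = 0.0334) did not pass without any 1 DBP library, DiBP replicate 2 or control replicate 2 (0.53 to 1.17 with 1 library left out), and without the low-value filter, with the replicate block or with only the groups compared in the fit. In DiBP larvae the change against control was -0.31 ± 0.23, limma adjusted p = 0.335. The difference between the copies was not tested.

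Free neutral amino acids enter through the sodium-driven carrier B0AT1, and 3 genes carry the symbol SLC6A19. SLC6A19 ENSDARG00000056719 was the most abundant per length, with 2.33, 2.87 and 1.68 FPKM in combined larvae, 3.69, 4.28 and 5.44 in DBP larvae, 1.85, 2.02 and 2.28 in DiBP larvae and 1.29 and 0.916 in control larvae. DBP libraries lay above every other library, and both controls lay under every exposed library. SLC6A19 rose about 4.06-fold in DBP larvae (2.02 ± 0.23, limma adjusted p = 0.00062), the largest rise of a member in that comparison, and passed in every alternative (2.24, adjusted p = 0.00128 without control replicate 1). It rose in DiBP larvae (0.90 ± 0.23, limma adjusted p = 0.0155), which did not pass without DiBP replicate 3 or control replicate 2 (0.67 to 1.12 with 1 library left out). In combined larvae the change was 0.92 ± 0.23, limma adjusted p = 0.0604. DBP larvae were higher than DiBP larvae (1.12 ± 0.21, limma adjusted p = 0.00742), and combined larvae were lower than DBP larvae (-1.10 ± 0.21, limma adjusted p = 0.00518), both in every alternative.

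The second copy, SLC6A19 ENSDARG00000018621, was low, at 0.164, 0.231 and 0.197 FPKM in combined larvae, 0.359, 0.365 and 0.497 in DBP larvae, 0.122, 0.216 and 0.204 in DiBP larvae and 0.174 and 0.119 in control larvae. The DBP libraries again lay above all others. Its rise in DBP larvae (1.11 ± 0.26, limma adjusted p = 0.0181) did not pass without DBP replicate 3 (0.95 to 1.27 with 1 library left out), and with only the groups compared in the fit. The remaining copy, SLC6A19 ENSDARG00000091560, had 0.445, 0.837 and 0.523 FPKM in combined larvae, 0.7503, 0.891 and 1.06 in DBP larvae, 0.963, 0.865 and 0.636 in DiBP larvae and 0.934 and 0.442 in control larvae, with all groups overlapping, and its changes of 0.49 ± 0.32 in DBP and 0.33 ± 0.32 in DiBP larvae did not pass.

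Cystine and dibasic amino acids are taken up by a pair of subunits, the light chain SLC7A9 (ENSDARG00000005894) and the heavy chain SLC3A1 (ENSDARG00000017165). SLC7A9 had 1.96, 2.45 and 3.24 FPKM in combined larvae, 2.96, 2.39 and 3.91 in DBP larvae, 4.15, 3.86 and 4.54 in DiBP larvae and 1.34 and 2.62 in control larvae. SLC3A1 had 1.16, 1.02 and 2.20 FPKM in combined larvae, 1.80, 1.39 and 1.51 in DBP larvae, 1.90, 1.84 and 1.97 in DiBP larvae and 0.489 and 1.19 in control larvae. In both, control replicate 1 was the lowest library and control replicate 2 reached the combined range. SLC7A9 rose in DiBP larvae (1.15 ± 0.30, limma adjusted p = 0.0161; 0.69, adjusted p = 0.154 without control replicate 1), a call also lost without DiBP replicate 3. SLC3A1 rose in DiBP larvae (1.25 ± 0.36, limma adjusted p = 0.0267; 0.68, adjusted p = 0.248 without control replicate 1), a call also lost without any 1 DiBP library, with the replicate block or with only the groups compared in the fit. In DBP larvae the changes were 0.75 ± 0.30 and 1.02 ± 0.36, which did not pass. SLC7A9 was lower in combined than in DiBP larvae (-0.83 ± 0.27, limma adjusted p = 0.0463), a call that did not pass without combined replicates 1 or 2, DBP replicates 1 or 2 or any 1 DiBP library (-1.04 to -0.65 with 1 library left out), and on FPKM as deposited or without the low-value filter.

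On the blood side, dibasic amino acids leave through y+LAT1, SLC7A7 (ENSDARG00000055226), with 2.89, 2.84 and 3.24 FPKM in combined larvae, 3.60, 3.61 and 3.96 in DBP larvae, 3.41, 2.88 and 3.16 in DiBP larvae and 2.38 and 3.02 in control larvae. DBP libraries were the highest, and the other groups lay close together. Its rise in DBP larvae (0.55 ± 0.16, limma adjusted p = 0.0431; 0.38, adjusted p = 0.21 without control replicate 1) did not pass without combined replicates 1 or 2, any 1 DBP library, any 1 DiBP library or control replicate 1 (0.38 to 0.71 with 1 library left out), and on FPKM as deposited, without the low-value filter, with the replicate block or with only the groups compared in the fit. LAT2, an exchanger of large neutral amino acids, is represented by 2 genes. slc7a8b (ENSDARG00000054343) had 6.01, 6.84 and 8.48 FPKM in combined larvae, 2.62, 1.17 and 1.56 in DBP larvae, 2.44, 2.59 and 1.69 in DiBP larvae and 2.04 and 3.25 in control larvae. Combined libraries were clear of the other 8, which overlapped. slc7a8b was higher in combined than in DBP larvae (1.84 ± 0.29, limma adjusted p = 0.00202) and than in DiBP larvae (1.52 ± 0.29, limma adjusted p = 0.00374), both in every alternative, while the change against control was 1.35 ± 0.32, limma adjusted p = 0.0511. It was the only intestinal member called higher in combined larvae than in either single exposure. SLC7A8 (ENSDARG00000075831) had 12.6, 12.8 and 11.1 FPKM in combined larvae, 9.36, 7.92 and 9.98 in DBP larvae, 10.7, 11.2 and 10.2 in DiBP larvae and 7.12 and 10.7 in control larvae, and its changes against control were 0.40 ± 0.15 in combined, 0.15 ± 0.15 in DBP and 0.34 ± 0.15 in DiBP larvae, which did not pass. The carrier slc6a14 (ENSDARG00000029866) ranged from 0.228 to 0.821 FPKM and was called in no comparison.

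Gut markers differed between the groups too. The 14 intestine markers, none at 0, summed to 323.2 to 461.0 FPKM in combined larvae, 812.0 to 920.9 in DBP larvae, 399.7 to 444.4 in DiBP larvae and 113.0 to 259.1 in control larvae. DBP libraries were the highest and controls the lowest, and DiBP libraries lay within the combined range. Of them, 11 rose in DBP, 11 in DiBP and 4 in combined larvae against control, and 8 were lower in combined than in DBP larvae. Beside that, 8.98%, 15.4% and 1.49% of all genes were called higher against control, and 10.5% lower in combined than in DBP larvae. The part of these markers in the transporter results was not tested.

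**Figure D2:**
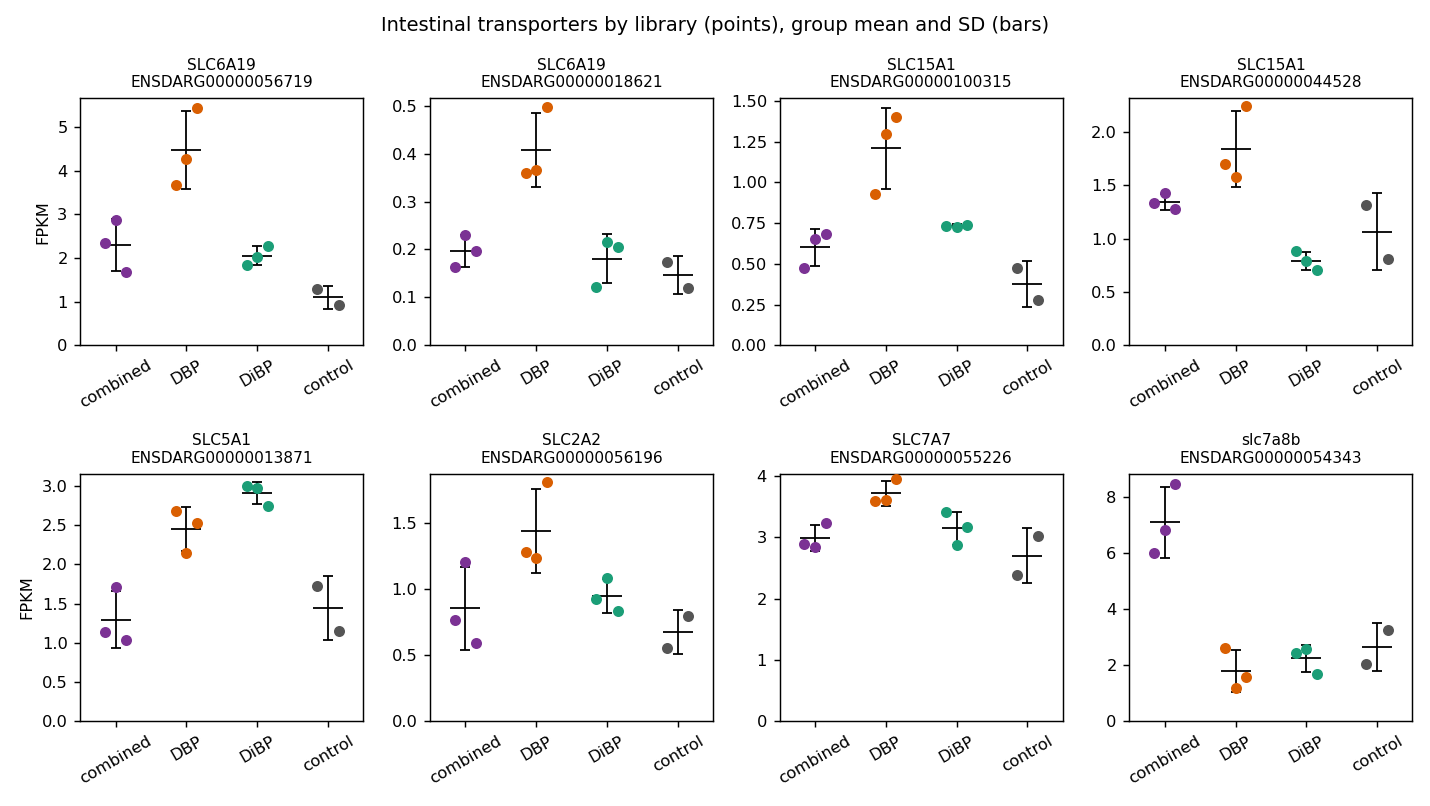
FPKM (y axis) of 8 intestinal transporters in each library (points) of the combined, DBP, DiBP and control groups (x axis), with group mean and SD. SLC6A19 ENSDARG00000056719 is highest in the 3 DBP libraries (3.69 to 5.44 FPKM), SLC5A1 is high in DBP and DiBP libraries alike, and slc7a8b is high in the combined libraries (6.01 to 8.48 FPKM).

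Of 11 renal transporters tested, 2 rose and 1 fell in DBP larvae and 5 rose and 1 fell in DiBP larvae, with medians of 0.91 and 0.95. Those are 27.3% and 54.5% of the class, beside 13.8% and 28.6% of all genes. In combined larvae the median was 0.37 and limma called 0 (3 higher and 1 lower at an unadjusted p under 0.05, and 0 by voom). Without control replicate 1, 1 rose and 1 fell in DBP, and 1 rose and 1 fell in DiBP larvae, where 9.31% and 17.1% of all genes were called. Combined larvae had 3 lower and 1 higher than DBP larvae (36.4%, beside 19.0% of all genes), and 1 lower and 2 higher than DiBP larvae (27.3%, beside 23.0%).

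PEPT2, the high-affinity peptide carrier of kidney, is encoded by SLC15A2 (ENSDARG00000032010). The libraries held 3.60, 4.95 and 5.94 FPKM in combined larvae, 9.13, 8.19 and 9.61 in DBP larvae, 8.43, 8.59 and 9.79 in DiBP larvae and 2.43 and 4.34 in control larvae. DBP and DiBP libraries lay together and clear of every combined and control library. SLC15A2 rose in DBP larvae (1.53 ± 0.25, limma adjusted p = 0.00361; 1.12, adjusted p = 0.0186 without control replicate 1) and in DiBP larvae (1.47 ± 0.25, limma adjusted p = 0.00203; 1.06, adjusted p = 0.014 without it), and was lower in combined larvae than in DBP (-1.07 ± 0.22, limma adjusted p = 0.00817) or DiBP larvae (-1.01 ± 0.22, limma adjusted p = 0.00778). All 4 calls passed in every alternative. The change in combined larvae against control was 0.46 ± 0.25, limma adjusted p = 0.329, and between DBP and DiBP larvae it was 0.06 ± 0.22.

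SMCT1, a sodium-driven carrier of lactate and short-chain fatty acids, went the other way. SLC5A8 (ENSDARG00000087120) had 3.61, 2.91 and 2.51 FPKM in combined larvae, 1.42, 1.08 and 1.40 in DBP larvae, 1.55, 1.84 and 1.98 in DiBP larvae and 3.64 and 4.03 in control larvae. Every DBP and DiBP library lay under every combined and control library. It fell in DBP larvae (-1.41 ± 0.18, limma adjusted p = 0.00119; -1.48, adjusted p = 0.00414 without control replicate 1) and in DiBP larvae (-1.02 ± 0.18, limma adjusted p = 0.00287; -1.09, adjusted p = 0.00991 without it), each in every alternative, and was the only member that fell against control in DBP larvae. Combined larvae were higher than DBP larvae (0.99 ± 0.16, limma adjusted p = 0.00262) in every alternative, and higher than DiBP larvae (0.60 ± 0.16, limma adjusted p = 0.0227), which did not pass without combined replicate 1 or DiBP replicates 1 or 2 (0.48 to 0.68 with 1 library left out). The related slc5a8l (ENSDARG00000003697) had 0.814, 1.17 and 1.62 FPKM in combined larvae, 0.988, 1.12 and 1.39 in DBP larvae, 1.29, 1.29 and 1.57 in DiBP larvae and 0.431 and 0.757 in control larvae, with both controls under every exposed library. A rise in DiBP larvae (1.18 ± 0.30, limma adjusted p = 0.0159) did not pass without DiBP replicate 3 or control replicate 1 (0.83 to 1.52 with 1 library left out).

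B0AT3, a neutral amino acid carrier of mammalian kidney, is encoded by SLC6A18 (ENSDARG00000068387), with 3.75, 4.22 and 6.43 FPKM in combined larvae, 5.06, 5.61 and 7.38 in DBP larvae, 10.8, 9.84 and 11.9 in DiBP larvae and 1.14 and 6.11 in control larvae. DiBP libraries were clear of all others, and control replicate 1 was far under control replicate 2, which lay among the DBP libraries. Its rise in DiBP larvae was 2.02 ± 0.51, limma adjusted p = 0.0146, but 0.86, adjusted p = 0.0808 without control replicate 1, and the call was also lost with only the groups compared in the fit. In DBP larvae the change was 1.22 ± 0.51, limma adjusted p = 0.136.

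Glutamine carrier SNAT3 is present as 2 genes. SLC38A3 ENSDARG00000091061 had 1.53, 2.01 and 1.06 FPKM in combined larvae, 2.04, 2.004 and 2.27 in DBP larvae, 1.90, 2.44 and 1.88 in DiBP larvae and 0.969 and 1.15 in control larvae. Both controls lay under every DBP and DiBP library, and the combined libraries overlapped the other groups. This copy rose in DBP larvae (1.02 ± 0.22, limma adjusted p = 0.0131; 0.90, adjusted p = 0.065 without control replicate 1) and in DiBP larvae (0.95 ± 0.22, limma adjusted p = 0.00955; 0.83, adjusted p = 0.0613 without it). SLC38A3 ENSDARG00000027065 had 13.1, 12.7 and 9.90 FPKM in combined larvae, 9.16, 7.35 and 7.78 in DBP larvae, 7.37, 7.97 and 7.14 in DiBP larvae and 10.2 and 7.89 in control larvae. Combined libraries were above every DBP and DiBP library, and control replicate 1 lay within their range. It was higher in combined than in DiBP larvae (0.54 ± 0.13, limma adjusted p = 0.0117) in every alternative, and its changes against control of 0.32 ± 0.14 in combined, -0.06 ± 0.14 in DBP and -0.21 ± 0.14 in DiBP larvae did not pass. Whether the copies differ was not tested.

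SGLT2, the glucose carrier of the proximal tubule, was low. SLC5A2 (ENSDARG00000100919) had 0.367, 0.327 and 0.539 FPKM in combined larvae, 0.630, 1.07 and 1.15 in DBP larvae, 0.496, 0.334 and 0.512 in DiBP larvae and 0.350 and 0.597 in control larvae, with the DBP libraries highest, and was lower in combined than in DBP larvae (-1.16 ± 0.30, limma adjusted p = 0.0214), a call that did not pass without combined replicates 1 or 2 or DBP replicates 2 or 3 (-1.41 to -1.02 with 1 library left out). Against control it did not pass in DBP larvae (0.96 ± 0.33, limma adjusted p = 0.0801). The GABA and taurine carrier SLC6A13 (ENSDARG00000067567) had 0.425, 0.488 and 0.265 FPKM in combined larvae, 0.434, 0.309 and 0.404 in DBP larvae, 0.552, 0.633 and 0.324 in DiBP larvae and 0.110 and 0.252 in control larvae. Both controls lay under every exposed library. SLC6A13 rose in DiBP larvae (1.15 ± 0.32, limma adjusted p = 0.0225; 0.77, adjusted p = 0.187 without control replicate 1), a call that also did not pass without DiBP replicates 1 or 2, and with only the groups compared in the fit. SMCT2, SLC5A12 (ENSDARG00000005004), ranged from 4.44 to 9.07 FPKM and was called in no comparison. SLC5A10 (ENSDARG00000074212), a mannose and fructose carrier of mammalian kidney, failed the low-value filter.

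The 16 pronephros markers, none at 0, summed to 102.2 to 147.0 FPKM in combined larvae, 140.6 to 149.4 in DBP larvae, 131.2 to 136.4 in DiBP larvae and 99.33 to 118.5 in control larvae. Of 14 tested, 2 rose in DBP and 2 in DiBP larvae, and 3 were lower in combined than in DBP larvae. Of all genes, 8.98% and 15.4% were called higher against control, and 10.5% lower in combined than in DBP larvae. The part of these markers in the renal results was not tested.

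Muscle has 5 members, all tested and all under 5 FPKM. Against control, 1 rose in DBP and 3 in DiBP larvae (medians 0.39 and 0.70, where 13.8% and 28.6% of all genes were called), while in combined larvae limma called 0 (0 at an unadjusted p under 0.05 and 0 by voom). Each of these calls against control was lost without control replicate 1. Among exposed groups, SLC2A12 was lower in combined than in DiBP larvae (-0.51 ± 0.17, limma adjusted p = 0.0472). The carrier slc7a2 was lower in combined than in DBP larvae (-0.48 ± 0.15, limma adjusted p = 0.0456), with overlapping groups. Both calls were close to the threshold, and 23.0% and 19.0% of all genes were called in those comparisons. GLUT12, an insulin-responsive glucose carrier of mammalian muscle, is encoded by SLC2A12 (ENSDARG00000036865), with 2.78, 3.23 and 2.69 FPKM in combined larvae, 2.60, 3.32 and 3.05 in DBP larvae, 3.88, 3.68 and 3.997 in DiBP larvae and 1.94 and 2.98 in control larvae. DiBP libraries lay above all others. Its rise in DiBP larvae was 0.70 ± 0.19, limma adjusted p = 0.0176 (0.40, adjusted p = 0.152 without control replicate 1), and the call was also lost without DiBP replicates 1 or 3 and with only the groups compared in the fit.

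The creatine carrier SLC6A8 (ENSDARG00000043646) had 0.571, 0.620 and 0.493 FPKM in combined larvae, 0.314, 0.403 and 0.702 in DBP larvae, 0.512, 0.887 and 0.969 in DiBP larvae and 0.320 and 0.312 in control larvae. Both controls were at the low end, and DBP replicate 1 lay among them. Its rise in DiBP larvae (1.09 ± 0.31, limma adjusted p = 0.0243) did not pass without DiBP replicates 2 or 3 or either control library (0.94 to 1.33 with 1 library left out), and with only the groups compared in the fit. The taurine carrier SLC6A6 (ENSDARG00000098438) had 0.910, 1.09 and 0.729 FPKM in combined larvae, 0.426, 0.621 and 0.822 in DBP larvae, 1.03, 1.47 and 1.12 in DiBP larvae and 0.276 and 0.885 in control larvae. The highest value was in DiBP replicate 2 and the lowest in control replicate 1. SLC6A6 rose in DiBP larvae (1.13 ± 0.37, limma adjusted p = 0.0446; 0.43, adjusted p = 0.424 without control replicate 1), with the call lost without combined replicates 1 or 2, DBP replicates 2 or 3, any 1 DiBP library or control replicate 1 (0.43 to 1.82 with 1 library left out), and on FPKM as deposited, without the low-value filter or with only the groups compared in the fit. The second copy, SLC6A6 ENSDARG00000012534, ranged from 0.0286 to 0.407 FPKM and was called in no comparison. The cationic amino acid carrier slc7a2 (ENSDARG00000037097) had 2.70, 2.83 and 1.98 FPKM in combined larvae, 3.61, 2.76 and 3.04 in DBP larvae, 2.06, 2.09 and 2.20 in DiBP larvae and 1.88 and 2.103 in control larvae. DBP replicate 1 was the highest library, and DBP and combined libraries overlapped. It rose in DBP larvae (0.72 ± 0.17, limma adjusted p = 0.0185), a call that did not pass without DBP replicate 1 or control replicate 1 (0.62 to 0.79 with 1 library left out), and with only the groups compared in the fit, and was higher in DBP than in DiBP larvae (0.59 ± 0.15, limma adjusted p = 0.0301), which did not pass without DBP replicates 1 or 3 or any 1 DiBP library (0.49 to 0.67 with 1 library left out), and on FPKM as deposited.

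Skeletal muscle markers summed to 36360 to 46430 FPKM in combined larvae, 46950 to 52760 in DBP larvae, 46500 to 50700 in DiBP larvae and 11870 to 40700 in control larvae, with the lowest value in control replicate 1. Of 12, 3 rose in DBP and 6 in DiBP larvae, where 8.98% and 15.4% of all genes were called higher. The part of these markers in the results for the muscle class was not tested.

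**Figure D3:**
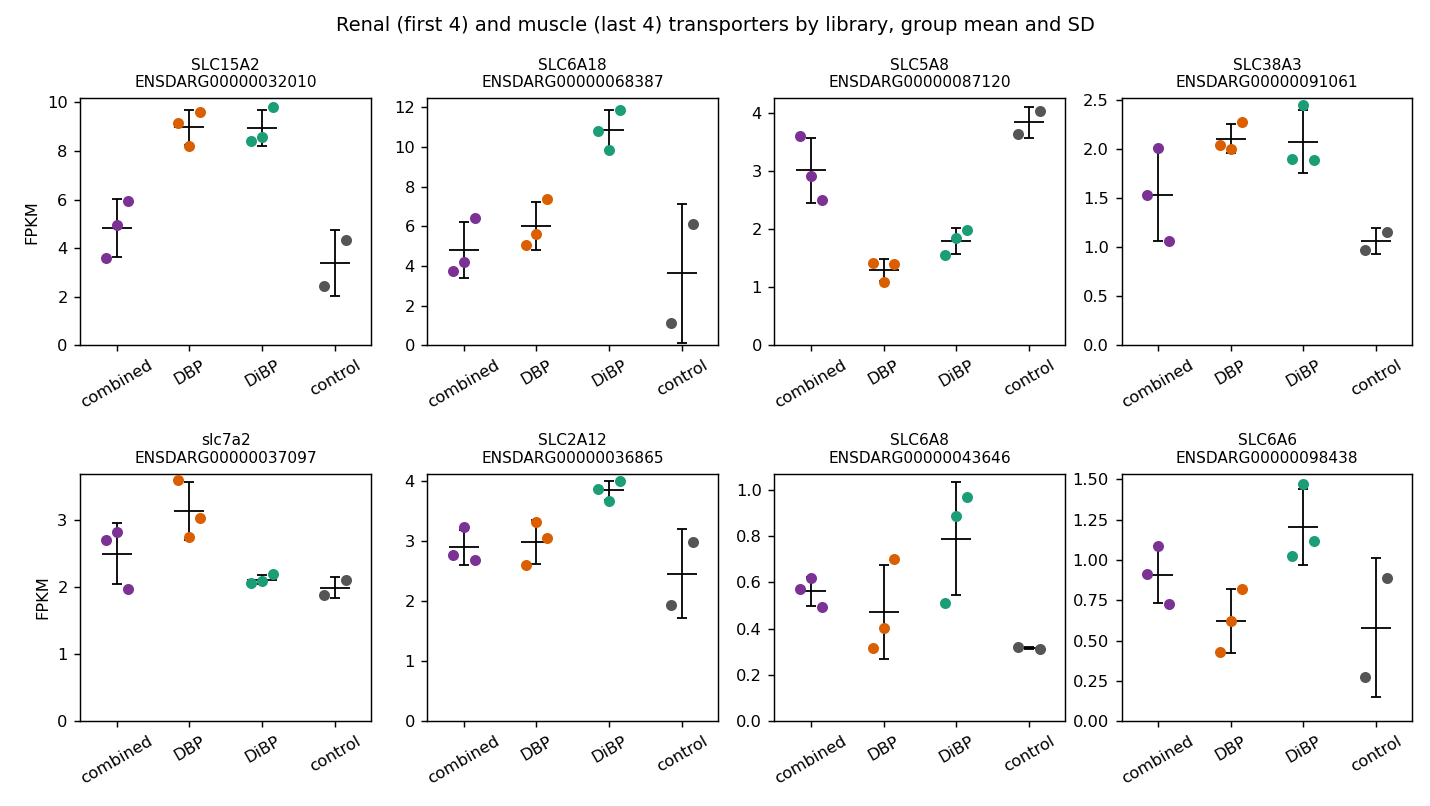
FPKM (y axis) of 4 renal transporters (first 4 panels) and 4 muscle transporters (last 4 panels) in each library (points) of the combined, DBP, DiBP and control groups (x axis), with group mean and SD. SLC15A2 is high in all DBP and DiBP libraries (8.19 to 9.79 FPKM) and SLC5A8 is low in the same libraries (1.08 to 1.98 FPKM), while the 2 controls of SLC6A18 lie at 1.14 and 6.11 FPKM.

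The neuronal and glial class is the largest, with 36 members and 32 tested. In DBP larvae 3 rose (median 0.11), in DiBP larvae 7 rose and 3 fell (median 0.21) and in combined larvae 1 rose (median 0.27). Those are 9.38%, 31.2% and 3.12% of the class, near the 13.8%, 28.6% and 2.88% of all genes called. Without control replicate 1, 3 rose in DBP larvae and 3 rose in DiBP larvae, where 6.03% and 9.65% of all genes were called higher. Combined larvae had 3 higher and 4 lower than DBP larvae and 4 higher and 4 lower than DiBP larvae, but 9 higher and 4 lower, and 5 higher and 3 lower, on FPKM as deposited. The first counts are 21.9% and 25.0% of the class, near the 19.0% and 23.0% of all genes called, and 23.6% and 26.6% of all genes were called on FPKM as deposited.

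EAAT2, which clears glutamate at synapses, is encoded by a pair of genes. SLC1A2 ENSDARG00000052138, the minor copy per length, had 2.48, 2.08 and 2.34 FPKM in combined larvae, 6.48, 6.07 and 5.36 in DBP larvae, 11.3, 11.6 and 10.2 in DiBP larvae and 2.73 and 2.68 in control larvae. The groups did not overlap and ran, from the highest, DiBP, DBP, control and combined, with control and combined close together. It rose about 4.11-fold in DiBP larvae (2.04 ± 0.13, limma adjusted p = 1.13e-05) and 2.31-fold in DBP larvae (1.21 ± 0.13, limma adjusted p = 0.000505). Combined larvae were lower than DiBP (-2.33 ± 0.12, limma adjusted p = 1.15e-06) and DBP larvae (-1.50 ± 0.12, limma adjusted p = 4.5e-05), and DBP larvae lower than DiBP larvae (-0.83 ± 0.12, limma adjusted p = 0.00201). All 5 calls passed in every alternative, and the values without control replicate 1 were 2.04 in DiBP and 1.21 in DBP larvae.

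The abundant copy, SLC1A2 ENSDARG00000102453, had 243, 250.0 and 197 FPKM in combined larvae, 159, 151 and 162 in DBP larvae, 166, 169.7 and 164 in DiBP larvae and 281 and 172 in control larvae. On FPKM as deposited, DBP and DiBP libraries lay under all others. Control replicate 1 was above and control replicate 2 below every combined library. With the scaling factors of the tests (0.953 for DiBP replicate 1, 0.953 for DBP replicate 3, 1.02 for control replicate 2), DiBP replicate 1 and DBP replicate 3 came above control replicate 2. Its changes against control were -0.39 ± 0.17, limma adjusted p = 0.147 in DBP and -0.36 ± 0.17, limma adjusted p = 0.133 in DiBP larvae. With both controls in the fit, the copies had opposite signs in both exposures. For the abundant copy that sign leaned on control replicate 1 (281 FPKM), as control replicate 2 (172 FPKM) lay close to the DBP and DiBP libraries. The difference between the copies was not tested.

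The paralogues slc1a8a and slc1a8b belong to the same glutamate carrier family. slc1a8b (ENSDARG00000032465) had 2.70, 2.98 and 0.237 FPKM in combined larvae, 2.79, 3.11 and 2.95 in DBP larvae, 7.62, 8.52 and 7.02 in DiBP larvae and 0.884 and 1.31 in control larvae. DiBP libraries were the highest and controls were low, but combined replicate 3 held the lowest value of all. slc1a8b rose in DiBP larvae (2.77 ± 0.70, limma adjusted p = 0.0147), a call lost without control replicate 1 (2.50). Without control replicate 1 and combined replicate 3 together the change was 2.51. In combined against DiBP larvae it was lower (-2.56 ± 0.63, limma adjusted p = 0.0143), and -1.55 without combined replicate 3. In DBP larvae it did not pass (1.46 ± 0.70, limma adjusted p = 0.188), and the change was 1.21 without control replicate 1 and combined replicate 3. Combined replicate 3 was left out for its own value of slc1a8b, which narrows the spread that limma sees. No p-value is therefore given for the fits of slc1a8b without it.

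slc1a8a (ENSDARG00000104204) had 21.1, 22.6 and 36.6 FPKM in combined larvae, 15.9, 15.9 and 14.8 in DBP larvae, 13.4, 13.7 and 12.8 in DiBP larvae and 18.2 and 17.8 in control larvae. Combined libraries lay above all others, with replicate 3 the highest, and DiBP libraries lay lowest. It was higher in combined than in DiBP larvae (0.85 ± 0.19, limma adjusted p = 0.00809) in every alternative. Without combined replicate 3, which stood apart for slc1a8a too, the change was 0.56, and no p-value is given for that fit. The changes of slc1a8a against control did not pass (0.46 ± 0.21 in combined, -0.12 ± 0.21 in DBP and -0.39 ± 0.21 in DiBP larvae). EAAT5, a glutamate carrier of the mammalian retina, has 2 genes. SLC1A7 ENSDARG00000026248 ranged from 0.495 to 1.36 FPKM and was called in no comparison. SLC1A7 ENSDARG00000034940 had 0.783, 1.04 and 1.32 FPKM in combined larvae, 0.400, 0.356 and 0.261 in DBP larvae, 0.272, 0.227 and 0.265 in DiBP larvae and 0.170 and 0.463 in control larvae, and every combined library lay above the rest. It was the only member that rose in combined larvae against control (1.47 ± 0.34, limma adjusted p = 0.0439), but the call did not pass without any 1 combined library, any 1 DBP library, any 1 DiBP library or control replicate 1 (0.94 to 2.0 with 1 library left out), and without the low-value filter, with a pseudocount of 0.01, with voom, with the replicate block or with only the groups compared in the fit. It was higher in combined than in DiBP larvae (1.57 ± 0.30, limma adjusted p = 0.00393) in every alternative, and higher than in DBP larvae (1.24 ± 0.30, limma adjusted p = 0.0169; adjusted p = 0.063 without DBP replicate 3).

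Glial EAAT1 also has 2 genes, SLC1A3 ENSDARG00000104431 at 7.49 to 12.3 FPKM and ENSDARG00000043148 at 0.576 to 3.201 FPKM, and their changes against control did not pass. EAAT3, SLC1A1 (ENSDARG00000020212), had 14.7, 15.8 and 17.6 FPKM in combined larvae, 12.8, 14.1 and 11.1 in DBP larvae, 11.3, 11.3 and 9.98 in DiBP larvae and 16.8 and 14.8 in control larvae. DiBP libraries were the lowest together with DBP replicate 3. It fell in DiBP larvae (-0.49 ± 0.14, limma adjusted p = 0.0245; -0.40, adjusted p = 0.128 without control replicate 1), a call also lost without DiBP replicates 2 or 3 and with the replicate block.

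The GABA carrier GAT3, SLC6A11 (ENSDARG00000087981), had 1.33, 1.75 and 0.882 FPKM in combined larvae, 0.742, 0.865 and 0.452 in DBP larvae, 1.48, 2.099 and 1.64 in DiBP larvae and 0.515 and 0.837 in control larvae. DiBP and combined libraries reached the highest values and overlapped. GAT3 rose in DiBP larvae (1.31 ± 0.31, limma adjusted p = 0.0116; 1.0, adjusted p = 0.096 without control replicate 1) and was lower in DBP than in DiBP larvae (-1.21 ± 0.28, limma adjusted p = 0.0205), which did not pass without DBP replicates 1 or 3 or DiBP replicates 2 or 3 (-1.39 to -0.97 with 1 library left out).

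Glycine is cleared around synapses by glial GLYT1, SLC6A9 (ENSDARG00000018534), which had 11.8, 12.6 and 10.9 FPKM in combined larvae, 12.5, 11.3 and 13.0 in DBP larvae, 13.2, 14.4 and 13.8 in DiBP larvae and 9.32 and 9.42 in control larvae. The controls lay under every exposed library and the DiBP libraries above every other. It rose in DiBP larvae (0.60 ± 0.09, limma adjusted p = 0.000874) in every alternative, and in DBP larvae (0.48 ± 0.09, limma adjusted p = 0.00581), a call lost with only the groups compared in the fit. It was lower in combined than in DiBP larvae (-0.35 ± 0.08, limma adjusted p = 0.00843; lost on FPKM as deposited). Without control replicate 1 the changes were 0.59 in DiBP and 0.47 in DBP larvae. GLYT2 of inhibitory nerve endings, SLC6A5 (ENSDARG00000067964), had 8.88 to 13.3 FPKM and was called in no comparison. Asc-1, an exchanger of D-serine and small neutral amino acids, has a pair of genes. SLC7A10 ENSDARG00000051730 had 4.05, 3.88 and 2.52 FPKM in combined larvae, 4.84, 4.99 and 5.09 in DBP larvae, 4.61, 5.26 and 5.67 in DiBP larvae and 4.60 and 3.71 in control larvae. Combined libraries lay under every DBP and DiBP library. It was lower in combined than in DBP (-0.69 ± 0.16, limma adjusted p = 0.0131) and DiBP larvae (-0.70 ± 0.16, limma adjusted p = 0.00968), each in every alternative. SLC7A10 ENSDARG00000008100, at 2.52 to 2.62 FPKM in DiBP libraries against 1.39 and 1.56 in controls, rose in DiBP larvae (0.81 ± 0.21, limma adjusted p = 0.0158), a call lost without control replicate 1 (0.73). Its change in combined larvae was 0.63 ± 0.21, limma adjusted p = 0.131, and the combined and DiBP libraries overlapped.

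Choline for acetylcholine synthesis enters nerve endings through CHT1, with 2 genes. SLC5A7 ENSDARG00000102336 had 0.594, 0.673 and 1.02 FPKM in combined larvae, 1.57, 2.08 and 1.60 in DBP larvae, 0.991, 0.721 and 0.461 in DiBP larvae and 0.518 and 0.414 in control larvae, and DBP libraries lay clear of all others. It rose about 3.47-fold in DBP larvae (1.79 ± 0.32, limma adjusted p = 0.00568; 1.93, adjusted p = 0.0171 without control replicate 1) in every alternative. DBP larvae were higher than DiBP larvae (1.26 ± 0.29, limma adjusted p = 0.0185), a call that did not pass without DBP replicates 1 or 2 or DiBP replicates 2 or 3 (1.01 to 1.51 with 1 library left out), and combined larvae were lower than DBP larvae (-1.27 ± 0.29, limma adjusted p = 0.012), which did not pass without DBP replicate 2 (adjusted p = 0.0526). The more abundant copy, SLC5A7 ENSDARG00000074860, had 4.02, 4.33 and 4.42 FPKM in combined larvae, 5.85, 5.27 and 5.96 in DBP larvae, 4.56, 4.99 and 4.59 in DiBP larvae and 4.61 and 4.77 in control larvae. Its DBP libraries were again the highest, and combined larvae were lower than DBP larvae (-0.57 ± 0.10, limma adjusted p = 0.00363) in every alternative, while against control the DBP change was 0.37 ± 0.11, limma adjusted p = 0.0512.

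GLUT3, the neuronal glucose carrier of mammals, is represented by slc2a3a (ENSDARG00000013295), with 24.5, 25.7 and 20.01 FPKM in combined larvae, 15.9, 14.9 and 16.1 in DBP larvae, 13.4, 15.5 and 14.6 in DiBP larvae and 20.5 and 17.5 in control larvae. Combined libraries lay above every DBP and DiBP library, and it was higher in combined than in DBP (0.41 ± 0.09, limma adjusted p = 0.0116) and DiBP larvae (0.57 ± 0.09, limma adjusted p = 0.00148), each in every alternative. slc2a3a fell in DiBP larvae against control (-0.34 ± 0.10, limma adjusted p = 0.0312), a call that did not pass without any 1 DiBP library or control replicate 1 (-0.45 to -0.23 with 1 library left out), and with the replicate block or with only the groups compared in the fit. The vesicular amino acid carrier SLC6A17 (ENSDARG00000068787) fell in DiBP larvae (-0.76 ± 0.24, limma adjusted p = 0.0381; -0.41, adjusted p = 0.306 without control replicate 1), and control replicate 1 held 2.51 FPKM, above all other libraries. That call did not pass without combined replicate 1, DBP replicate 2, any 1 DiBP library or control replicate 1 (-1.12 to -0.41 with 1 library left out), and without the low-value filter or with only the groups compared in the fit. Carriers of noradrenaline, dopamine and serotonin were called in no comparison. Dopamine carrier SLC6A3 (ENSDARG00000004219) had 2.69 to 4.50 FPKM, noradrenaline carrier SLC6A2 (ENSDARG00000016141) had 2.13 to 3.23, and serotonin carrier SLC6A4 (ENSDARG00000061165) had 0.0542 to 0.498. Amino acid carrier SLC6A15 (ENSDARG00000062821), at 0 to 0.524 FPKM, was higher in combined than in DBP larvae (1.45 ± 0.42, limma adjusted p = 0.0336), a call that did not pass without combined replicates 2 or 3 or any 1 DBP library (1.12 to 1.76 with 1 library left out), and without the low-value filter, with a pseudocount of 0.01 or with the replicate block. SLC6A15 held 7, 19 and 15 reads in combined, 4, 0 and 3 in DBP, 4, 14 and 4 in DiBP and 7 and 4 in control larvae. Only combined replicates 2 and 3 and DiBP replicate 2 held enough reads for the low-value filter. SLC6A15 thus entered the test mainly through the group called higher, which its adjusted p does not take into account.

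Neuron markers (15 genes) summed to 1507 to 1711 FPKM in combined larvae, 1366 to 1451 in DBP larvae, 1275 to 1349 in DiBP larvae and 1416 to 1731 in control larvae, and glia markers (8 genes) to 658.5 to 780.9 FPKM in combined larvae, 749.9 to 807.5 in DBP larvae, 729.3 to 748.5 in DiBP larvae and 637.0 to 753.9 in control larvae. Of 14 neuron markers tested, 2 fell in DiBP larvae against control and 3 were higher in combined than in DiBP larvae. Of all genes, 13.2% and 10.5% were called in those directions. Photoreceptor markers (9 genes) summed to 1952 to 2599 FPKM in combined larvae, 1724 to 1808 in DBP larvae, 1707 to 1903 in DiBP larvae and 1138 to 1493 in control larvae. None of these markers was at 0, and their part in the results for neuronal transporters was not tested.

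**Figure D4:**
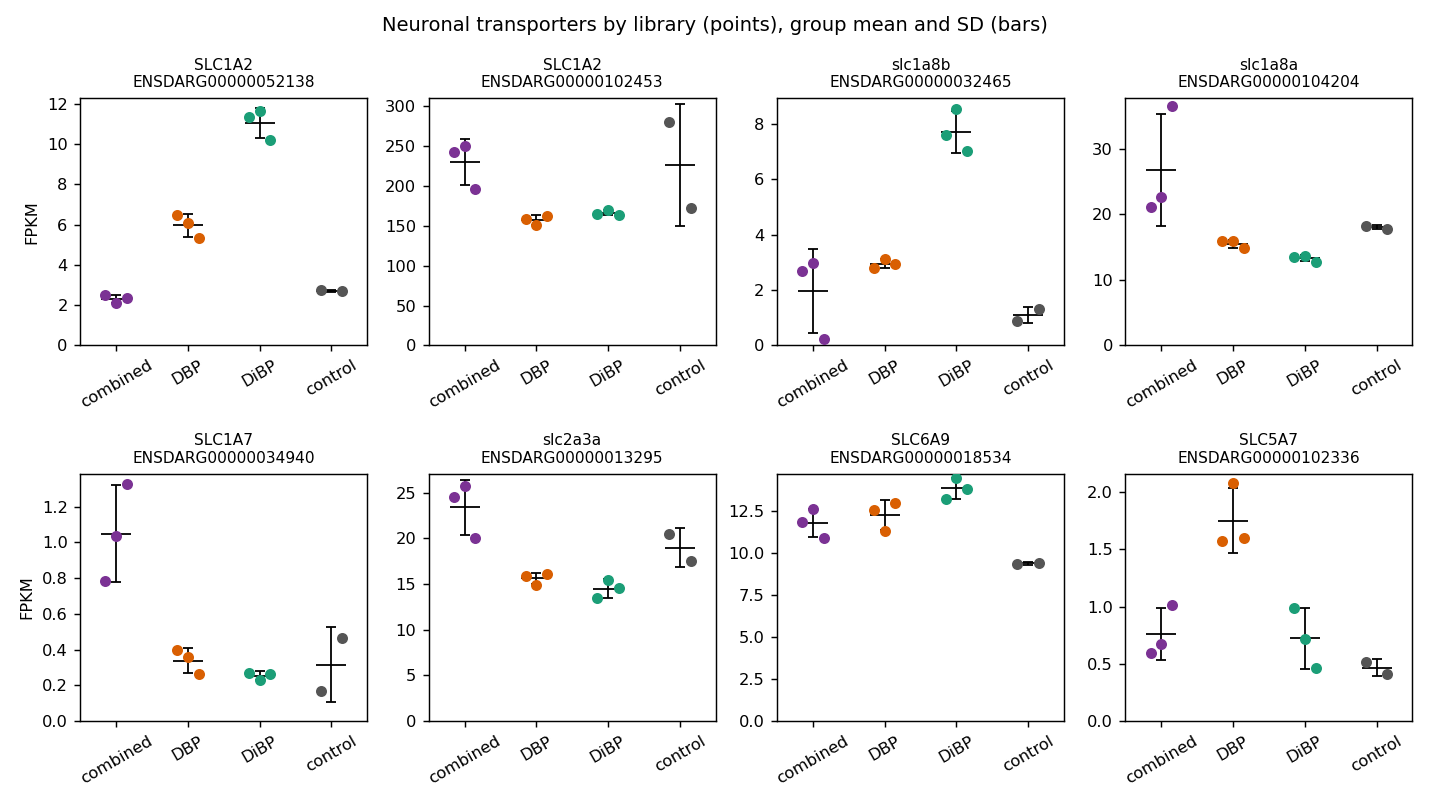
FPKM (y axis) of 8 neuronal transporters in each library (points) of the combined, DBP, DiBP and control groups (x axis), with group mean and SD. SLC1A2 ENSDARG00000052138 lies at 10.2 to 11.6 FPKM in DiBP and 5.36 to 6.48 in DBP libraries against 2.68 and 2.73 in controls, while ENSDARG00000102453 has controls at 281 and 172 FPKM.

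Of 16 broadly used transporters tested, 2 rose in DBP and 2 in DiBP larvae (12.5% of the class in each, beside 13.8% and 28.6% of all genes). The 4F2 heavy chain, needed by several exchangers, has 2 genes. slc3a2a (ENSDARG00000036427) had 57.4, 60.9 and 62.5 FPKM in combined larvae, 61.6, 63.0 and 64.4 in DBP larvae, 45.6, 48.0 and 48.5 in DiBP larvae and 41.8 and 50.1 in control larvae. DBP libraries were among the highest, and DiBP libraries lay with the controls. slc3a2a rose in DBP larvae (0.56 ± 0.10, limma adjusted p = 0.00501; 0.42, adjusted p = 0.0176 without control replicate 1; lost with only the groups compared in the fit) and was higher in DBP than in DiBP larvae (0.46 ± 0.09, limma adjusted p = 0.00804) in every alternative. The more abundant SLC3A2 ENSDARG00000037012 had 123, 120.4 and 117 FPKM in combined larvae, 125, 129 and 119 in DBP larvae, 121, 121 and 127 in DiBP larvae and 90.1 and 116 in control larvae. It rose in DBP larvae (0.38 ± 0.11, limma adjusted p = 0.0422; 0.19, adjusted p = 0.185 without control replicate 1), with the call lost without combined replicates 1 or 2, any 1 DBP library, any 1 DiBP library or control replicate 1 (0.19 to 0.56 with 1 library left out), and on FPKM as deposited, without the low-value filter, with the replicate block or with only the groups compared in the fit.

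The glutamine exchanger ASCT2, SLC1A5 (ENSDARG00000099186), had 6.54, 6.53 and 4.63 FPKM in combined larvae, 6.83, 7.05 and 8.86 in DBP larvae, 8.32, 9.51 and 9.75 in DiBP larvae and 2.34 and 7.43 in control larvae. Control replicate 1 held a low value and control replicate 2 lay among the DBP libraries. Its rise in DiBP larvae was 1.16 ± 0.35, limma adjusted p = 0.0312, but 0.34, adjusted p = 0.25 without control replicate 1. It was also lost without any 1 DiBP library, and with only the groups compared in the fit. GLUT1, the basal glucose carrier, has a pair of genes of low level. SLC2A1 ENSDARG00000001437 had 0.358, 0.542 and 0.195 FPKM in combined larvae, 0.298, 0.159 and 0.417 in DBP larvae, 0.570, 1.20 and 0.519 in DiBP larvae and 0.0759 and 0.259 in control larvae. DiBP replicate 2 was the highest and control replicate 1 the lowest. This SLC2A1 copy rose in DiBP larvae (1.73 ± 0.45, limma adjusted p = 0.0163), a call that did not pass without DiBP replicate 2 or control replicate 1 (1.21 to 2.24 with 1 library left out), and with only the groups compared in the fit. SNAT2, SLC38A2 (ENSDARG00000045886), the amino acid carrier induced when amino acids are scarce, had 8.81 to 17.5 FPKM, and xCT, slc7a11 (ENSDARG00000071384), the cystine and glutamate exchanger, had 0.762 to 1.55 FPKM, and neither was called in any comparison. The cationic carrier SLC7A3 was called in none either (ENSDARG00000020645 at 13.1 to 17.9 FPKM and ENSDARG00000061566 at 1.72 to 3.11), and LAT1, SLC7A5 (ENSDARG00000099265), failed the low-value filter.

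Among the 20 other transporters tested, slc38a5b (ENSDARG00000014587), a SNAT5 glutamine carrier, was abundant, with 31.6, 33.9 and 35.4 FPKM in combined larvae, 39.4, 39.3 and 41.4 in DBP larvae, 55.2, 55.5 and 58.4 in DiBP larvae and 14.5 and 37.3 in control larvae. DiBP libraries were clear of all others, and control replicate 1 was lowest by far. slc38a5b rose in DiBP larvae (1.32 ± 0.28, limma adjusted p = 0.00632), but by only 0.64 without control replicate 1. That call was lost with only the groups compared in the fit. Combined larvae were lower than DiBP larvae (-0.86 ± 0.25, limma adjusted p = 0.0296), which did not pass without combined replicates 1 or 2 or any 1 DiBP library (-0.93 to -0.81 with 1 library left out). The GLUT11 gene slc2a11b (ENSDARG00000063288), expressed in pigment cells of fish, had 0.871, 0.605 and 0.585 FPKM in combined larvae, 0.256, 0.149 and 0.104 in DBP larvae, 0.356, 0.453 and 0.579 in DiBP larvae and 0.332 and 0.301 in control larvae. Combined libraries were the highest and DBP libraries the lowest. It was higher in combined than in DBP larvae (1.44 ± 0.26, limma adjusted p = 0.00432) in every alternative, and lower in DBP than in DiBP larvae (-1.05 ± 0.26, limma adjusted p = 0.0267), which did not pass without DBP replicates 2 or 3 or DiBP replicates 2 or 3 (-1.27 to -0.87 with 1 library left out), and without the low-value filter. SNAT6, SLC38A6 (ENSDARG00000054312), was higher in DBP than in DiBP larvae (0.41 ± 0.10, limma adjusted p = 0.0273) and higher in combined than in DiBP larvae (0.33 ± 0.10, limma adjusted p = 0.0376), at 7.20 to 7.98 FPKM in DiBP libraries. The first of these calls did not pass without any 1 DBP library or DiBP replicates 2 or 3, and the second did not pass without any 1 combined, DBP or DiBP library, and with the replicate block. SLC7A6OS (ENSDARG00000010596), which is no transporter, fell in DiBP larvae (-0.40 ± 0.13, limma adjusted p = 0.034; -0.17, adjusted p = 0.228 without control replicate 1), a call also lost without any 1 DiBP library and with only the groups compared in the fit.

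A further term asked whether the combined larvae differed from what the single exposures would give if their log2 changes added up, as combined minus DBP minus DiBP plus control. A negative value means that the combined larvae were lower than that sum. Of 98 members, 8 were higher and 24 lower (32.7%), and 32.6% of all genes were called, with 14.6% higher and 18.0% lower. The members' median was -0.22, beside 0.03 for all genes. On FPKM as deposited the split was 12 higher and 18 lower, where 23.6% of all genes were called higher and 13.8% lower, with the median of all genes at 0.23. By class, 8 intestinal members were lower and 1 higher (median -1.09), 5 renal lower and 2 higher (median -1.27), 1 muscle member lower, and 7 neuronal members lower and 5 higher (median -0.15; 5 lower and 7 higher on FPKM as deposited). Of the 32 calls, 22 remained without control replicate 1.

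Several members that rose in DBP and DiBP larvae had negative terms. SLC1A2 ENSDARG00000052138 had -3.53 ± 0.18, limma adjusted p = 1.1e-06, SLC15A2 had -2.54 ± 0.33, limma adjusted p = 0.000333 and SLC5A1 had -2.09 ± 0.30, limma adjusted p = 0.000533. SLC6A19 ENSDARG00000056719 had -2.0 ± 0.31, limma adjusted p = 0.000899. SLC6A9, the glial glycine carrier, had -0.83 ± 0.11, limma adjusted p = 0.000486. In the other direction, SLC5A8 had 2.01 ± 0.24, limma adjusted p = 0.000224 and slc7a8b 2.01 ± 0.43, limma adjusted p = 0.00542, and these 7 terms passed in every alternative. Each of these terms leans on the 2 controls as well as on the exposed groups. The heat map of the 4 tissue classes shows the same members by library.

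**Figure D5:**
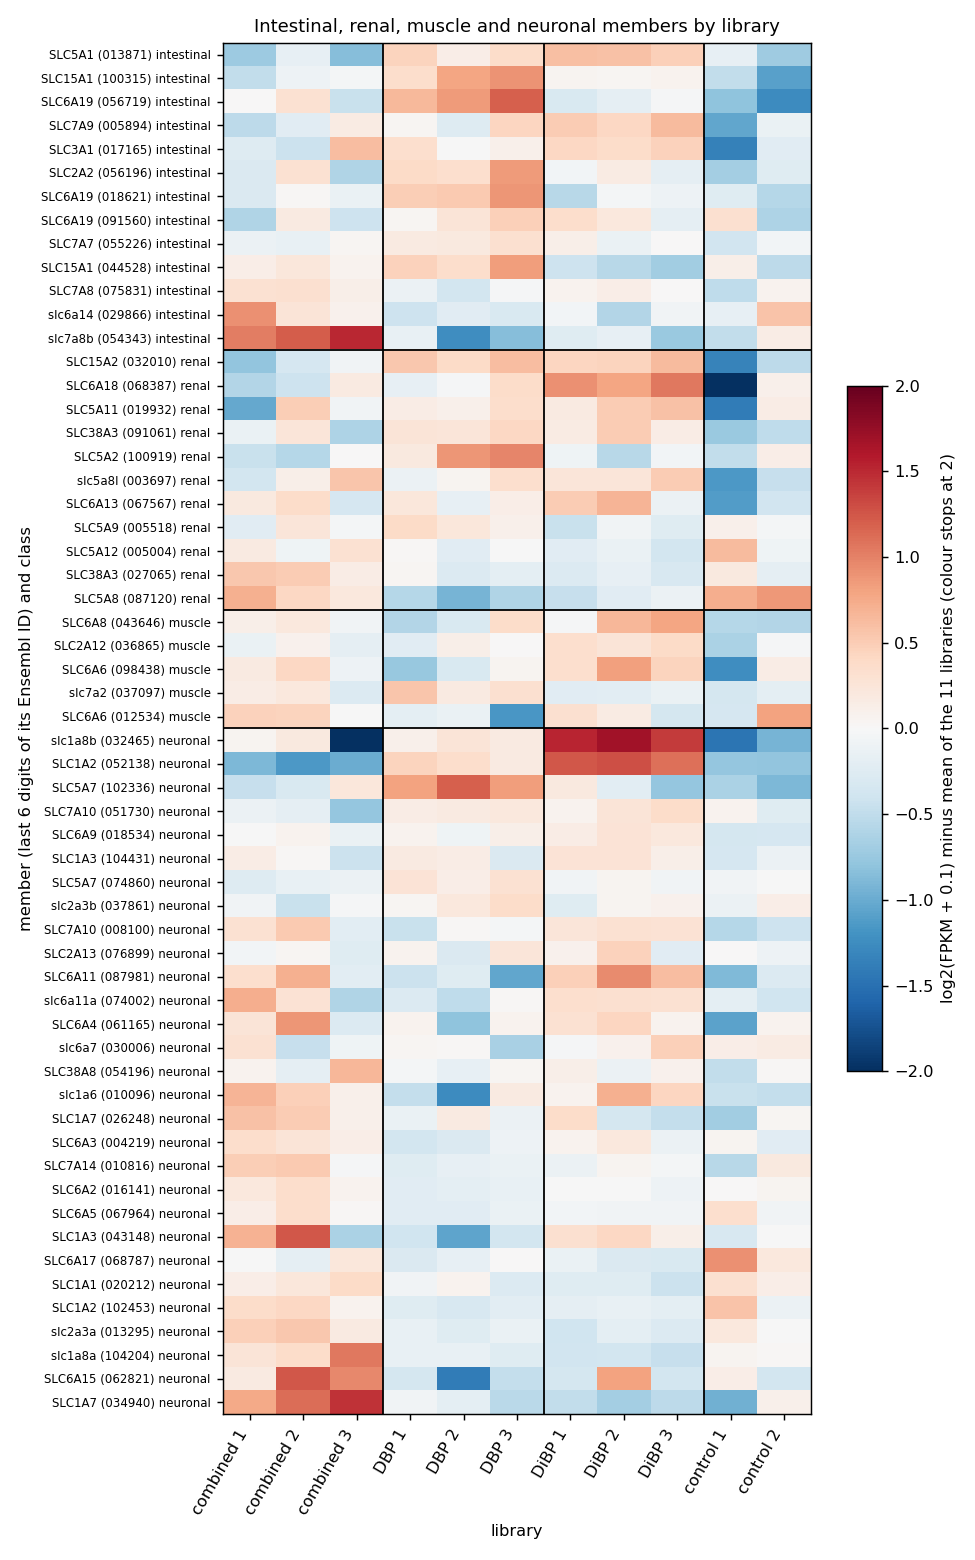
Log2 of FPKM plus 0.1 minus the mean of the 11 libraries (colour, which stops at 2) for tested intestinal, renal, muscle and neuronal members (rows, with the last 6 digits of the Ensembl ID) in each library (columns, grouped as combined, DBP, DiBP and control). SLC1A2 ENSDARG00000052138, SLC15A2 and SLC5A1 are red in DBP and DiBP libraries and blue in most combined and control ones, and control replicate 1 is blue for SLC6A18.

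Other genes of the same pathways were given from a list of 72, of which 70 were tested. In DBP larvae 18 rose and 1 fell, in DiBP larvae 28 rose and 5 fell, and in combined larvae 1 fell (27.1%, 47.1% and 1.43% of the list, beside 13.8%, 28.6% and 2.88% of all genes called). Combined larvae had 2 higher and 13 lower than DBP larvae (21.4%, beside 19.0% of all genes), and 4 higher and 24 lower than DiBP larvae (40.0%, beside 23.0%). The brush-border peptidase ANPEP (ENSDARG00000103878), which releases amino acids from peptides at the gut surface, had 4.76, 6.33 and 5.47 FPKM in combined larvae, 11.6, 11.6 and 13.3 in DBP larvae, 15.9, 14.96 and 17.1 in DiBP larvae and 2.85 and 6.09 in control larvae. DiBP libraries were highest and DBP libraries next, clear of combined and control ones. ANPEP rose in DiBP larvae (1.96 ± 0.25, limma adjusted p = 0.000439; 1.42 without control replicate 1) and was lower in combined than in DBP (-1.29 ± 0.22, limma adjusted p = 0.00305) and DiBP larvae (-1.64 ± 0.22, limma adjusted p = 0.000492). Another ANPEP gene (ENSDARG00000036809) was about level, averaging 0.838 FPKM in combined, 0.825 in DBP, 0.835 in DiBP and 0.807 in control larvae. The transcription factor CEBPB (ENSDARG00000042725) had 108, 108 and 77.8 FPKM in combined larvae, 171, 177 and 168 in DBP larvae, 175, 169.5 and 180.5 in DiBP larvae and 68.3 and 93.5 in control larvae. DBP and DiBP libraries were clear of all others. It rose in DBP (1.21 ± 0.15, limma adjusted p = 0.000767; 0.98, adjusted p = 0.00249 without control replicate 1) and DiBP larvae (1.18 ± 0.15, limma adjusted p = 0.000409; 0.95, adjusted p = 0.00141 without it) and was lower in combined than in DBP (-0.99 ± 0.13, limma adjusted p = 0.000839) and DiBP larvae (-0.97 ± 0.13, limma adjusted p = 0.00051). CTH (ENSDARG00000074301), which makes cysteine, rose in DiBP (1.04 ± 0.09, limma adjusted p = 7.19e-05; 0.91 without control replicate 1) and DBP larvae (0.65 ± 0.09, limma adjusted p = 0.00205; 0.52 without it). This gene was lower in combined than in DiBP larvae (-0.74 ± 0.08, limma adjusted p = 0.000164). Another CTH gene (ENSDARG00000032206) was low, averaging 0.252 FPKM in combined, 0.216 in DBP, 0.547 in DiBP and 0.360 in control larvae.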

How the data were processed

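RNA of whole 120 h AB larvae was taken with Trizol, made into libraries with the NEBNext Ultra kit from 3 µg and read as 150 bp pairs, per the labels' protocols. HISAT2 2.1.0 and HTSeq 0.6.0 with the GRCz10 build were used, per the submitters' processing notes. The authors deposited 1 FPKM value per gene and library (reads scaled to gene length and to the library's total). Which annotation release, gene lengths, strand and counting mode they used is unknown here. The design names triplicates, and only 2 control libraries were analysed here.

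Whole reads, library totals and relative gene lengths were recovered from the deposited FPKM values. All values above 0 came out whole (100.0%, within 1e-06 reads plus 2e-08 per read). The recovery and the test were checked on simulated data. With 200 genes changed 2-fold, the test found 43.0% in DBP against control and 69.5% in combined against DBP larvae. With 4-fold changes it found 94.5% and 94.0%. The simulated spread was the same in every group, whereas the 2 real controls stood apart. TMM factors (own code, 0.9346 to 1.101) were computed from these reads. Values of single libraries, and the order of libraries read from them, are FPKM as deposited, without these factors. Genes with 10 or more reads at the median total in at least 2 libraries and 15 or more in all were kept (19465 of 27625). Then log2(FPKM divided by the factor + 0.1) was tested with limma 3.58.1 in R 4.3.3 (trended variance, 11 libraries in 1 fit, 7 residual degrees of freedom, prior 3.8), with Benjamini-Hochberg adjustment over all tested genes and a threshold of 0.05. Changes on this scale understate those of low genes. Intervals from read counts cover counting error only, and none is printed.

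Symbols came from a gene name table (25392 of 27625 IDs). The members, their classes, the gene lists and the tests were chosen with earlier results of these data known. Named members were those called without overlap of the groups and with at least 20 reads on average, up to 10 in each direction per comparison, and a panel of known carriers, and up to 4 partner genes per comparison by smallest p. SLC6A15, the lower SLC7A10 copy and the other called members outside that rule were named after their values were seen. Alternatives were FPKM as deposited, other filters, pseudocounts of 0.01 and 1, voom on the recovered reads, only the groups compared in the fit, a replicate block, each library left out, and control replicate 1 with combined replicate 3 left out together. Same-numbered libraries of different groups did not deviate together in every pair (r of -0.0336 to 0.136), so their numbers were not taken as pairs. Python 3.11.15, NumPy 2.4.6, pandas 2.3.3 and Matplotlib 3.10.9 were used. Values of some genes that this rule names are not reported here, though all tested members enter the counts.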

Additional observations from a re-analysis of the deposited data

Results flagged for a closer look

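The combined exposure differed from the sum of the log2 changes of DBP and DiBP in 32 members by limma's test of that difference (combined minus DBP minus DiBP plus control). Those calls were 32.7% of the 98 tested members, beside 32.6% of all genes called by the same test. As a count, the members thus did not stand out from the background. All of these terms use the same 2 controls. For members under the naming rule, values without control replicate 1 are given where they move by over 1.5 times or end the call.

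The lowest terms were those of glutamate carriers, at -4.02 for slc1a8b and -3.53 for SLC1A2 ENSDARG00000052138. For slc1a8b the term was -3.02 without combined replicate 3. The renal SLC15A2 had -2.54, and SLC6A18 had -2.53, but -1.36 without control replicate 1. Intestinal SLC5A1 had -2.09, SLC6A19 ENSDARG00000056719 had -2.0 and SLC15A1 ENSDARG00000100315 had -1.92. The choline carrier SLC5A7 ENSDARG00000102336 had -1.81. The glutamine carrier slc38a5b had -1.74, and -1.06 without control replicate 1, and SLC1A5 had -1.69, and -0.87 without it.

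Among members under the naming rule, the highest called terms above 0 were those of slc7a8b (2.01) and SLC5A8 (2.01). The others were slc1a8a (0.96), slc2a3a (0.75), SLC1A2 ENSDARG00000102453 (0.73), SLC1A1 (0.67) and SLC38A3 ENSDARG00000027065 (0.60). Outside that rule, SLC1A7 ENSDARG00000034940 was also called higher (1.34, limma adjusted p = 0.0417). It averaged 14.64 reads, too few for the rule, and its term without control replicate 1 is not given here. Without control replicate 1 the limma call was lost for slc1a8a (adjusted p = 0.0521), SLC1A1 (adjusted p = 0.0557) and SLC38A3 (adjusted p = 0.11), and the term of SLC1A2 ENSDARG00000102453 was 0.38. That SLC1A2 call did not pass without combined replicates 1 or 2, DBP replicates 1 or 2 or any 1 DiBP library. SLC38A3 also did not pass without combined replicates 1 or 2, DBP replicates 2 or 3 or any 1 DiBP library, and slc1a8a without DBP replicate 3 or DiBP replicate 3.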

How the results depend on the processing

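Counts of called members depended most on which libraries entered. With 1 library left out, or control replicate 1 and combined replicate 3 together, they ran from 10 to 37 in DBP, 9 to 41 in DiBP and 0 to 21 in combined larvae against control, 4 to 29 between DBP and DiBP, 11 to 40 between combined and DBP, 12 to 28 between combined and DiBP, and 24 to 44 for the term beyond the sum of both exposures. Over all genes, the counts ran from 1360 to 5747, 3309 to 8259, 207 to 4332, 932 to 6397, 2005 to 7245, 2794 to 7446 and 4996 to 8363, in the same order. Calls that held in every alternative run were 6 of 16, 5 of 28, 0 of 1, 4 of 11, 10 of 20, 10 of 17 and 17 of 32, in that order. With only the groups compared in the fit, 8 members were called in DBP, 15 in DiBP and 0 in combined larvae against control, and 29 between DBP and DiBP. Of all genes, 3.70%, 15.8%, 0% and 31.9% were called in that setting, in the same order. With genes at a mean of 5 CPM or more, 7 were called between DBP and DiBP and 2 in combined larvae. There 15.1% and 5.13% of all genes tested were called. The single call in combined larvae became 3 on FPKM as deposited, 2 with a pseudocount of 1, and 0 with a pseudocount of 0.01 and without the low-value filter. In these runs 2.97%, 3.02%, 2.75% and 1.32% of all genes were called, in that order. With the replicate block, whose numbers do not pair the libraries, the counts against control were 12 in DBP, 24 in DiBP and 0 in combined larvae, and 11, 19, 17 and 30 in the others. The block called 10.4%, 25.2% and 1.36% of all genes against control, and 10.1%, 17.5%, 21.6% and 30.3% in the others. No called change reversed. Among changes that were not called, those of SLC1A2 ENSDARG00000102453 (0.42, with -0.36 to 0.42 over the left-out fits) and SLC38A2 (0.47, with -0.30 to 0.47) in combined larvae changed sign and were called when control replicate 1 and combined replicate 3 were both left out. The cause was not tested.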

Other observations

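Of the 15 members that failed the low-value filter, 4 are broad (slc5a3a, SLC5A6 ENSDARG00000042859, slc7a1a and SLC7A5). Another 4 are neuronal (SLC2A13 ENSDARG00000087867, SLC38A8 ENSDARG00000009482, slc6a4b and slc7a14b). For SLC5A6, SLC2A13 and SLC38A8, another gene of the same symbol was tested. The rest are 3 of the other class (slc2a11a, slc2a15a and SLC2A6), 2 renal (slc2a9l1 and SLC5A10), 1 intestinal (SLC2A5) and slc2a4rg, which is no transporter. None of the 113 members was at 0 in every library.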
